A study of Mus musculus with 6 samples.

Results

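The transcripts described here encode the NF-κB subunits and the IκB proteins that bind them, in cultured mouse brain microvascular endothelial cells (BMVECs) with and without IL-36β. They are 10 genes of the 54532 in the deposited expression table, taken by gene symbol, and all 10 were among the 12618 genes tested. The family was chosen with earlier results of these data known, so its counts beside those of all genes are descriptions. By role they are the canonical subunits Nfkb1, Rela and Rel, the non-canonical subunits Nfkb2 and Relb, the classical IκB genes Nfkbia, Nfkbib and Nfkbie, and the atypical nuclear IκB genes Nfkbiz and Bcl3.

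NF-κB is a family of dimeric transcription factors. In resting cells classical IκB proteins hold the dimers in the cytoplasm, and receptors of the IL-1 family, which include the IL-36 receptor, activate a kinase complex, IKK, that marks IκB for destruction and so frees dimers containing RelA or c-Rel. The non-canonical route instead cuts the Nfkb2 precursor to a subunit that pairs with RelB. Atypical IκB proteins such as IκBζ and Bcl-3 act in the nucleus, where they bind subunit homodimers and raise or lower transcription of selected genes. Several of these genes, Nfkbia above all, are themselves NF-κB targets, which makes the pathway a feedback loop, and in endothelium it is known for driving adhesion molecules and chemokines.

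BMVECs are the lining cells of brain capillaries, whose tight contacts make the blood-brain barrier. All 6 cultures were wild-type C57BL/6J cells grown out of brain vessel fragments, kept in endothelial growth medium and selected with puromycin, which was then withdrawn. The 3 untreated libraries carry the names A0, B0 and D0 and are called untreated 1 to 3 here. The 3 libraries of cells given processed mouse IL-36β (DEVD mIL-36β, 100 ng/ml, 24 h) carry the names A24, D24 and E24 and are called IL-36β 1 to 3. No time and no vehicle is labelled for the untreated cells, so time in culture and IL-36β cannot be told apart, and no group lacked the receptor. The labels do not tell whether the libraries of a group were separate animals or cultures. The p-values therefore measure the spread between these libraries, which may be technical.

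Each library held between 15180389 and 19544689 reads assigned to genes. Levels are FPKM (fragments scaled by gene length in kilobases and, here, by a size factor for library depth). Set side by side between genes, they depend on the gene length used, as given below for Nfkb1 and Relb. For a gene of 1 kb, 1 FPKM is worth 15.4 to 20.3 reads. All 10 endothelial markers were measured, with summed levels of 2174 to 2666 FPKM without and 2186 to 2686 FPKM with IL-36β. The sum hides differences of single markers, named, as is Myh11 below, after their values were seen. Cldn5 was 1.65-fold (limma adjusted p = 0.378, DESeq2 adjusted p = 0.0222) and Tek 1.43-fold with IL-36β, while Vwf was 0.73-fold and Slc2a1 0.71-fold. Of 6 pericyte and smooth muscle markers 4 passed the filter, with sums, mostly Acta2, of 389 to 1333 and 347 to 779 FPKM. One of them, the smooth muscle myosin gene Myh11, was at 8.07 ± 3.11 FPKM without and 3.52 ± 1.32 FPKM with IL-36β (SD, n = 3 per group), 0.47-fold with no overlap (limma adjusted p = 0.315, DESeq2 adjusted p = 0.00447), and its part in the results below was not tested. Lymphocyte and oligodendrocyte markers summed to at most 0.251 FPKM, fibroblast markers to at most 1.4 FPKM, and those of microglia and other myeloid cells, almost wholly Cd68, to between 6.87 and 9.34 FPKM. Cd3e, Cd3d, Aqp4 and Snap25 were at 0 in all 6 libraries. Astrocyte markers summed to at most 1.72 FPKM and neuron markers, almost wholly Tubb3, to between 5.22 and 24.2 FPKM. In these bulk samples fewer cells of a type and less RNA per cell cannot be told apart. By the letters of their names the libraries were grouped here into a set A/B (untreated 1 and 2 with IL-36β 1) and a set D/E (untreated 3 with IL-36β 2 and 3). The labels give the letters but not this grouping, which is a choice made here. Set A/B holds only IL-36β 1 of the treated libraries and D/E only untreated 3 of the untreated ones. A fold within a set therefore has no spread on that side. Between the sets 220 of the 12618 genes tested differed (limma adjusted p under 0.05), and none of the 10 family members was among them. At so small a share, none among 10 genes is no result about the family. Nfkbiz came closest, with levels in D/E 0.54-fold those in A/B (limma adjusted p = 0.0625). Folds within these library sets stand beside the pooled folds of all members but Nfkb1, Rel and Nfkbib.

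Promoter sequence is shown first because several of these genes are known targets of the factor they encode or restrain. RefSeq promoter windows on GRCm38.p6, from 250 bases before to 50 bases after a transcription start, were found for 7 of the 10 genes, in 9 windows. Nfkb1, Relb and Nfkbiz had no entry. The windows were searched on both strands for the 10-base κB consensus. It was present in 5 of the 7 genes (71.4%) and in 5.14% of the 27025 genes with windows (4.51% of 32851 windows). A match describes these letters and is neither a site of binding nor a cause of the levels below, and the absence of one in Rela and Nfkbib says only that the letters are not in these windows.

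The Nfkbia and Nfkbie stretches are the 120 bases before the start. The other lines are 30-base windows around 1 matching stretch each, and all are printed 5′ to 3′ along the gene with the matching letters in capitals. The 11 capitals of the Rel line and of the first Nfkb2 line are overlapping matches.
Nfkbia, chr12:55492648-55492767, minus strand: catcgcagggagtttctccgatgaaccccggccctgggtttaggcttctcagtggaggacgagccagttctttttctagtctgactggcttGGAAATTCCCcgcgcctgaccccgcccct
Nfkbie, chr17:45555580-45555699, plus strand: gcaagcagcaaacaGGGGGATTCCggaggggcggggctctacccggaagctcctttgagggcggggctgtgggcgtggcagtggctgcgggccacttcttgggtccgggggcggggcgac
Rel, chr11:23771042-23771071, minus strand: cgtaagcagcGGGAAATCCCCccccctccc
Nfkb2, chr19:46304688-46304717, plus strand: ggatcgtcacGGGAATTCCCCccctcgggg
Nfkb2, chr19:46305695-46305724, plus strand: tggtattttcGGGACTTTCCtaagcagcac
Bcl3, chr7:19822734-19822763, minus strand: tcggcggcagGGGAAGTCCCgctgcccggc

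The match in Nfkbia began 29 bases before the start, that in Nfkbie 106 bases before it and the Rel pair 92 and 91 bases before it. Nfkb2 had 4 distinct matching sites across its 3 annotated starts, of which those nearest before the first start began 39, 38 and 11 bases upstream. The single match of Bcl3 lay after the start, from position 3 of the transcript. The other Nfkb2 line lies just after the second start. Of the 5 genes with a match, Rel had the smallest fold of the family with IL-36β, 1.10. The others with a match had folds of 1.72 to 2.67. Rela and Nfkbib, without one, had folds of 1.13 and 1.34. Nfkb1, Relb and Nfkbiz, which had no window, had folds of 1.35, 1.74 and 3.51. A link between match and fold was not tested.

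**Figure D1:**
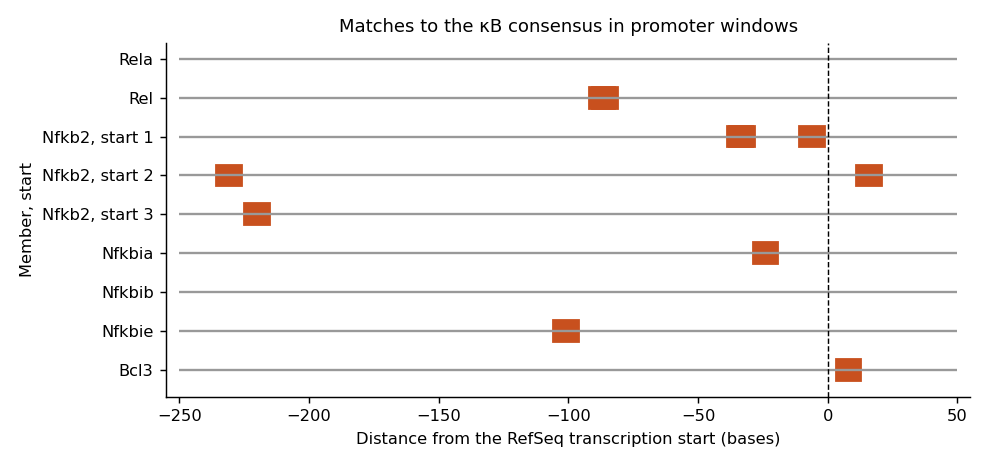
Matches to the κB consensus (orange blocks, on either strand) in the RefSeq promoter windows of the 7 genes with an entry, with the distance from the transcription start in bases on the x axis and 1 line per annotated start. Rela and Nfkbib have none, and the block of Bcl3 lies after the start (dashed line). Nfkb2 has a block on the line of each of its 3 starts. The block of start 3 is the same site as 1 block of start 2, since their windows overlap.

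The 2 members past the threshold (limma on log2(FPKM + 0.5), Benjamini-Hochberg adjusted p under 0.05 over all 12618 genes) were both IκB genes: Nfkbia, 1.89-fold higher, and Bcl3, 2.67-fold higher. None was lower. Across all genes tested 0.166% were called higher and 0.0159% lower. Nfkbiz had the largest fold of the family, 3.51, but its untreated libraries differed widely and it did not pass. The subunit transcripts gave smaller folds, from 1.10 (Rel) to 1.74 (Relb), and none passed.

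The log2 fold change was above 0 in all 10 members, against 50.5% of all genes, and the 3 IL-36β libraries lay above the 3 untreated libraries in 9 of the 10, all but Rel, against 8.95% of all genes. No member had all IL-36β libraries below the untreated ones, as 7.24% of all genes did. The median fold was 1.13 for the 3 canonical subunits, 1.73 for the 2 non-canonical subunits, 1.77 for the 3 classical IκB genes and 3.06 for the 2 atypical IκB genes. The median log2 fold change was 0.79 over the 10 members and 0.00 over all genes tested. Of the 10 members 8 had an unadjusted limma p under 0.05, as did 5.96% of genes in the higher direction. Ranked by fold among the 12618 genes, Nfkbiz stood at 20, Bcl3 at 40 and Nfkbia at 96, followed by Nfkbie at 121, Relb at 131 and Nfkb2 at 136. Nfkb1 stood at 512, Nfkbib at 550, Rela at 2513 and Rel at 3168.

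The number of members called depended on the test. With the library set as a term limma called 3 members higher, Nfkbiz being added (0.674% of all genes were called higher and 0.135% lower). On the whole reads recovered from FPKM, edgeR called Bcl3, Nfkb2 and Nfkbia higher (0.262% of all genes higher, 0.0317% lower), and DESeq2 called 7 members, all but Rela, Rel and Nfkbib (1.27% of all genes higher, 0.793% lower). No member was called lower by any of them. When any 1 of the 6 libraries was left out, limma called none of the 10. It then called only 2 to 8 of all 12618 genes, so none among 10 is no result about the family.

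**Figure D2:**
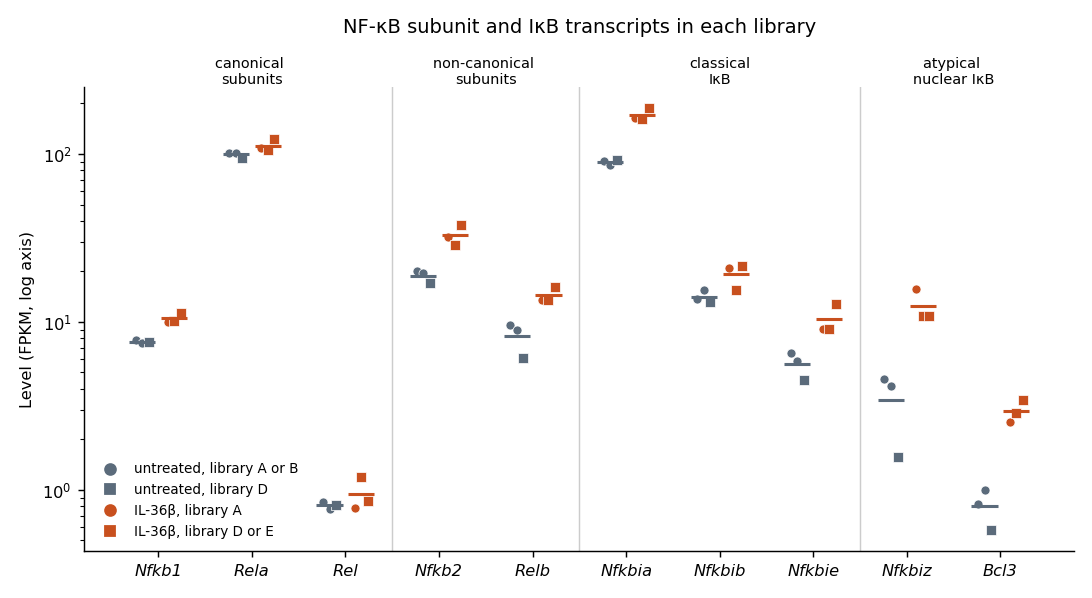
Level of each member in each library, in FPKM on a log axis, grouped by role. Grey marks are untreated and orange marks IL-36β libraries, circles are libraries lettered A or B and squares those lettered D or E, and each bar is a group mean of 3 libraries. Nfkbiz and Bcl3 show the widest gaps between the groups, and the colours overlap in Rel and touch in Nfkbib.

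Among the canonical subunits, Rela, which encodes the main transactivating subunit, was the most abundant. Its level was 102, 102 and 95.1 FPKM in untreated 1 to 3 and 108, 106 and 123 FPKM in IL-36β 1 to 3. The libraries of the groups were apart but close, and the fold of 1.13 had a 95% confidence interval that included no change (0.96 to 1.32, limma adjusted p = 0.582). Rela (ENSMUSG00000024927) lies on chromosome 19, 5637483 to 5648130, plus strand, and was in the 96.8th percentile of levels over all genes tested. Its fold was 1.06 within set A/B and 1.20 within D/E.

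Nfkb1, the gene of a precursor that is cut to the usual DNA-binding partner of RelA, stood at 7.81, 7.51 and 7.56 FPKM in the untreated libraries and at 10.0, 10.2 and 11.3 FPKM with IL-36β. Every IL-36β library was above every untreated one, and the untreated values lay close together. The means were 7.63 ± 0.162 and 10.5 ± 0.673 FPKM (SD, n = 3 per group). The fold was 1.35 (95% confidence interval 1.17 to 1.57), with an unadjusted p of 0.00153 and a limma adjusted p = 0.159. DESeq2 alone called it (adjusted p = 0.00852). Nfkb1 (ENSMUSG00000028163) lies on chromosome 3, 135584655 to 135691547, minus strand.

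Rel, the gene of c-Rel, a subunit best known from lymphoid cells, was at 0.841, 0.774 and 0.81 FPKM without and at 0.785, 1.19 and 0.862 FPKM with IL-36β. It was the only member whose groups overlapped, the lowest IL-36β library lying among the untreated ones. With 312 and 354 reads over the groups it was in the 9.76th percentile of levels. The fold of 1.10 had an interval of 0.84 to 1.43 (limma adjusted p = 0.794), so a change up to the upper bound was not detectable at this depth and spread. Rel (ENSMUSG00000020275) lies on chromosome 11, 23736847 to 23770970, minus strand.

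The non-canonical subunits had folds of 1.72 and 1.74. Nfkb2, whose precursor is processed when the non-canonical route is active and otherwise acts as an inhibitor, was at 20.0, 19.5 and 17 FPKM in the untreated libraries and at 31.9, 28.9 and 37.9 FPKM with IL-36β. The groups were well apart, with untreated 3 lowest and IL-36β 3 highest. The fold was 1.72 (95% confidence interval 1.41 to 2.11, limma adjusted p = 0.0904), and both count models placed it past the threshold (edgeR adjusted p = 0.0417, DESeq2 adjusted p = 2.26e-05). Within the library sets the fold was 1.60 in A/B and 1.92 in D/E. Nfkb2 (ENSMUSG00000025225) lies on chromosome 19, 46304737 to 46312090, plus strand.

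Relb, whose product pairs with the processed Nfkb2 product, was at 9.59, 8.92 and 6.09 FPKM in untreated libraries and at 13.5, 13.6 and 16.2 FPKM with IL-36β. Untreated 3, from set D/E, was the low library, and the fold was 1.44 within set A/B and 2.33 within D/E. Pooled, it was 1.74 (95% confidence interval 1.32 to 2.30, limma adjusted p = 0.18). DESeq2 called it (adjusted p = 0.00248). Relb (ENSMUSG00000002983) lies on chromosome 7, 19606217 to 19629438, minus strand.

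Nfkbia encodes IκBα, the inhibitor that is degraded and resynthesised fastest after a stimulus. Its level was 91.4, 86.6 and 92.2 FPKM in untreated 1 to 3 and 165, 162 and 187 FPKM in IL-36β 1 to 3. The groups were far apart relative to their spread, with means of 90 ± 3.02 and 171 ± 13.9 FPKM (SD, n = 3 per group). The rise was 1.89-fold (95% confidence interval 1.61 to 2.22, limma adjusted p = 0.0275) and was 1.85-fold within set A/B and 1.88-fold within D/E. It passed with the library set as a term (limma adjusted p = 0.0151), in edgeR (adjusted p = 0.0121) and in DESeq2 (adjusted p = 7.26e-12). With 1 library left out its log2 fold change stayed between 0.85 and 0.96, while the limma adjusted p lay between 0.0665 and 0.178. Nfkbia (ENSMUSG00000021025) lies on chromosome 12, 55489410 to 55492647, minus strand, and had 7495 untreated and 13867 IL-36β reads.

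Nfkbie encodes IκBε, a slower feedback inhibitor that binds RelA and c-Rel dimers. It was at 6.49, 5.84 and 4.51 FPKM in the untreated libraries and at 9.14, 9.11 and 12.8 FPKM with IL-36β. The groups did not overlap, and untreated 3 and IL-36β 3 marked the extremes. Its fold of 1.77 (95% confidence interval 1.33 to 2.36) was close to that of Nfkbia, with a wider spread and a limma adjusted p = 0.18. It was 1.45 within set A/B and 2.26 within D/E, and it passed in DESeq2 (adjusted p = 0.00265). Nfkbie (ENSMUSG00000023947) lies on chromosome 17, 45555703 to 45563169, plus strand.

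Nfkbib encodes IκBβ, a classical inhibitor with a weaker known feedback response. It was at 13.7, 15.6 and 13.2 FPKM without and at 20.9, 15.6 and 21.4 FPKM with IL-36β. The groups only just missed overlapping, since untreated 2 and IL-36β 2 print alike. The fold was 1.34 (95% confidence interval 1.07 to 1.68, limma adjusted p = 0.384), and no test run called it. Nfkbib (ENSMUSG00000030595) lies on chromosome 7, 28758251 to 28767512, minus strand. Its span overlaps that of Sirt2, on the opposite strand, by 778 bases (GENCODE M21). Sirt2 was at 20.4 and 21 FPKM in the groups, and no source used here states whether reads were counted by strand, so any reads from bases exonic in both cannot be told apart.

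The atypical IκB genes had the largest folds. Nfkbiz encodes IκBζ, a nuclear cofactor needed for a second wave of NF-κB targets and known as a mediator of IL-36 responses in skin. It was at 4.59, 4.18 and 1.56 FPKM in untreated 1 to 3 and at 15.8, 10.8 and 10.9 FPKM in IL-36β 1 to 3. The groups were widely apart, but untreated 3 lay well under the other untreated libraries. The pooled fold was 3.51 with a wide interval (95% confidence interval 2.01 to 6.12, limma adjusted p = 0.131).

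The Nfkbiz fold was 3.34 within set A/B, where only IL-36β 1 was treated. It was 5.54 within D/E, where the low untreated 3 was the only untreated library. Levels in D/E were 0.54-fold those in A/B (limma adjusted p = 0.0625). With the set as a term the fold was 4.30 and its interval narrowed to 3.26 to 5.68 (limma adjusted p = 0.00593), the smallest adjusted p of any member in that model. Without untreated 3 the log2 fold change was 1.40 in place of 1.81 (limma adjusted p = 0.0735). DESeq2 called Nfkbiz (adjusted p = 0.0117) and edgeR did not (adjusted p = 0.0746). Nfkbiz (ENSMUSG00000035356) lies on chromosome 16, 55811375 to 55838899, minus strand.

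Bcl3 encodes a nuclear IκB that forms complexes with homodimers of the processed Nfkb1 and Nfkb2 products. It was at 0.821, 0.997 and 0.578 FPKM in untreated libraries and at 2.55, 2.88 and 3.44 FPKM with IL-36β. Every IL-36β library lay well above every untreated one, at a low level: 105 reads stood behind the 3 untreated and 370 behind the 3 IL-36β libraries. The rise was 2.67-fold (95% confidence interval 2.02 to 3.54, limma adjusted p = 0.0359) on the log2(FPKM + 0.5) scale, which understates changes at such levels. It was 2.17-fold within set A/B and 3.38-fold within D/E. On the recovered reads it was 3.65-fold (edgeR adjusted p = 0.0301, DESeq2 adjusted p = 5.94e-07). Without any 1 library the limma adjusted p was 0.0735 to 0.161, and after rescaling to TPM (FPKM brought to the same sum in every library) it was 0.063. Bcl3 (ENSMUSG00000053175) lies on chromosome 7, 19808462 to 19822770, minus strand. It overlaps the antisense transcripts Gm16175 and Gm16174, which were at no more than 0.145 FPKM in either group mean.

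**Figure D3:**
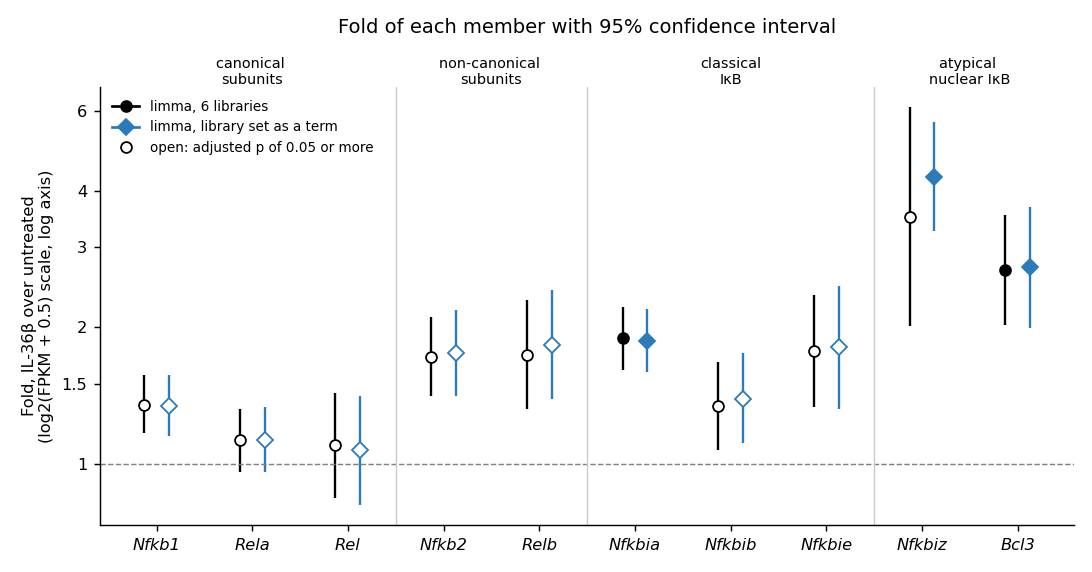
Fold of IL-36β over untreated for each member on the log2(FPKM + 0.5) scale, log axis, with 95% confidence intervals from limma on the 6 libraries (black circles) and with the library set as a term (blue diamonds); filled marks have an adjusted p under 0.05. Nfkbia and Bcl3 are filled in both models and Nfkbiz only with the set term, where its interval is narrower.

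Differences in fold between members were compared as within-library ratios of levels for 5 pairs, each with an exact permutation test (two-sided), for which 3 against 3 libraries cannot give a p below 0.1. The ratio of Nfkb2 to Nfkb1 was 2.56, 2.60 and 2.25 in the untreated and 3.18, 2.82 and 3.36 in the IL-36β libraries, a 1.26-fold difference. The ratio of Relb to Rela was 0.0941, 0.0877 and 0.0641 against 0.125, 0.129 and 0.132, a 1.59-fold difference, 1.37-fold within set A/B and 2.03-fold within D/E. In both pairs, where the non-canonical subunit is set over the canonical one, the groups did not overlap.

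The ratio of Bcl3 to Nfkbia was 1.99-fold and that of Nfkbiz to Nfkbia 2.10-fold higher with IL-36β, again with no overlap. Within set A/B these ratios were 1.52-fold and 1.95-fold higher, and within D/E 2.89-fold and 3.71-fold. All 4 of these pairs reached p = 0.1, the smallest the exact permutation test can give, and 0.125 after adjustment over the 5 pairs. The ratio of Nfkbie to Nfkbib overlapped between groups, 0.473, 0.373 and 0.341 against 0.438, 0.582 and 0.599 (exact permutation p = 0.2), and was 1.04-fold higher within set A/B and 1.73-fold within D/E. The exact permutation test could call none of these differences at this number of libraries.

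Summed by role, IκB and subunit transcripts stood in a different balance in the groups. The 5 IκB genes together had 0.835, 0.818 and 0.885 times the summed FPKM of the 5 subunit genes in the untreated libraries and 1.29, 1.25 and 1.24 times with IL-36β. All untreated libraries were below parity and all IL-36β libraries above it. Nfkbia over Rela, the most abundant gene on either side, was at 0.896, 0.851 and 0.969 in untreated and 1.52, 1.53 and 1.52 in IL-36β libraries. Nfkbia made up 78.9% ± 2.99 of IκB transcripts in untreated and 79.1% ± 1.75 in IL-36β libraries (SD, n = 3 per group), with overlap.

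Within the subunits, the share of Rela was 72.7%, 73.5% and 75.1% in untreated and 65.8%, 66.2% and 65% in IL-36β libraries. The non-canonical share was 21.1%, 20.5% and 18.3% against 27.6%, 26.6% and 28.6%. Rela thus remained the majority transcript in every library, with a smaller share in each IL-36β library. The atypical genes made up 4.62%, 4.57% and 1.9% of IκB transcripts in untreated and 8.62%, 6.86% and 6.1% in IL-36β libraries. These sums are descriptions of transcript levels, without a test, and say nothing of protein amounts or of where the proteins were in the cell.

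**Figure D4:**
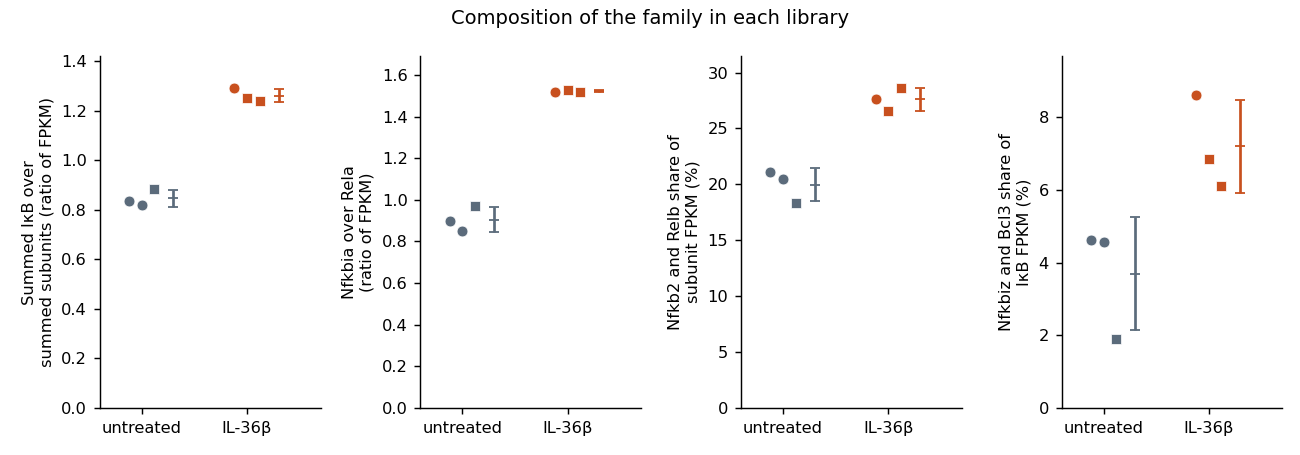
Measures of family balance per library: summed IκB over summed subunit FPKM, Nfkbia over Rela, the percent of subunit FPKM from Nfkb2 and Relb, and the percent of IκB FPKM from Nfkbiz and Bcl3. Circles are libraries lettered A or B, squares those lettered D or E, and the bars beside them are the mean ± SD of 3 libraries; the groups do not overlap in any panel, and the atypical share of untreated 3 is the lowest of all.

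By level, the untreated order was Rela, Nfkbia, Nfkb2, Nfkbib, Relb, Nfkb1, Nfkbie, Nfkbiz, Rel and Bcl3. Relb and Nfkb1, Nfkbie and Nfkbiz, and Rel and Bcl3 were neighbours whose libraries overlapped. With IL-36β, Nfkbia stood above Rela without overlap, and the order went on with Nfkb2, Nfkbib, Relb, Nfkbiz, Nfkb1, Nfkbie, Bcl3 and Rel. Every neighbouring pair from Nfkbib to Nfkbie overlapped there, although Nfkbib and Relb each lay wholly above Nfkb1 and Nfkbie, and Bcl3 was clear of Rel.

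The place of Nfkb1 in this order depends on the gene length used. The deposited length of Nfkb1 is 12061 bases, all exons of its transcripts together, while the principal transcript has 4117. Counted per principal transcript, Nfkb1 came to 22.3 and 30.8 in the group means and moved to rank 3 in untreated and rank 4 in IL-36β cells, and Nfkb2 over Nfkb1 was 0.882 and 1.12 in place of 2.47 and 3.12. Relb, with a length ratio of 1.76, came to 14.4 and 25.4. On this measure, chosen after the levels were seen, the Rela share was 63.5% in untreated and 55.1% in IL-36β cells, and the IκB to subunit ratio was 0.76 and 1.11. Folds between groups do not depend on the length used, apart from the added 0.5.

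Other genes of the pathway were taken from 7 lists. Of their 68 genes 65 were tested, and 1 rose, Tnip1, with none lower (0.166% of all genes tested were called higher and 0.0159% lower). Tnip1 encodes a ubiquitin-binding partner of the deubiquitinase A20 that restrains NF-κB. It was at 32.2, 30.6 and 23.1 FPKM without and 82.3, 58.6 and 71.4 FPKM with IL-36β. The groups were far apart, and the rise was 2.45-fold (95% confidence interval 1.86 to 3.21, limma adjusted p = 0.0485), 2.59-fold within set A/B and 2.76-fold within D/E. The median log2 fold change of the 65 genes was 0.08, and 14 of them had an unadjusted limma p under 0.05, as did 1308 of the 12618 genes. The call of Tnip1 was lost with a pseudocount of 0.1, with no filter, with TPM or quantile scaling and without any 1 library.

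Of the 11 tested genes of the deubiquitinase and linear ubiquitin list, 7 were above 0 in log2 fold change, with a median of 0.10. Its best-known member, Tnfaip3, which encodes A20, is named after its values were seen. It stood at 6.32 ± 2.85 FPKM without and 7.3 ± 2.74 FPKM with IL-36β, with overlapping groups (limma adjusted p = 0.837). Its levels in set D/E were 0.49-fold those in A/B (limma adjusted p = 0.0287), and with the set as a term its log2 fold change was 0.58 in place of 0.24 (fold interval, 95% confidence, 1.16 to 1.93, limma adjusted p = 0.187). Of the IκB-like genes outside the family, Nfkbil1 was at 5.41 ± 0.672 and 6.83 ± 2.12 FPKM (SD, n = 3 per group). Nfkbid, which encodes a further nuclear IκB and is named after its values were seen, was at 0.577, 0.442 and 0.582 FPKM in untreated libraries and 1.29, 1.3 and 1.69 FPKM with IL-36β, apart but not past the threshold (limma adjusted p = 0.119, DESeq2 adjusted p = 0.0152).

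Among the components that carry the signal to IκB none passed in limma without a set term, while edgeR called Irak3 (adjusted p = 0.0301) and DESeq2 called Irak3 (adjusted p = 5.92e-07) and Ikbke (adjusted p = 2.39e-07). The median log2 fold change was 0.08 for the 6 tested genes of the IKK complex and its relatives, where Ikbkg, the regulatory subunit NEMO, was at 13.6 ± 1.18 and 14 ± 1.03 FPKM. It was 0.05 for the 13 receptor-proximal adaptors and kinases, where Tollip, an adaptor that restrains IL-1 receptor signalling, was at 35.4 ± 1.04 and 32.5 ± 1.88 FPKM. It was 0.05 for the 8 genes of the ubiquitin ligase that marks IκB, where Nedd8, a ubiquitin-like activator of cullins, was at 63.9 ± 3.1 and 70.9 ± 7.6 FPKM. These lists thus had medians near that of all genes, 0.00.

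The list of non-canonical activation had 10 of 11 tested genes above 0, a median log2 fold change of 0.22 and 7 genes higher without overlap, against 50.5% above 0 and 8.95% higher without overlap among all genes. None passed in limma without a set term, DESeq2 called Traf1 (adjusted p = 0.0134) and the set-term model called Cd40 (limma adjusted p = 0.0308). Tnfrsf12a, the receptor of the cytokine TWEAK and the most abundant gene of this list, was at 172 ± 7.72 and 200 ± 20 FPKM (SD, n = 3 per group). Map3k14, Traf1, Traf2, Traf3, Birc2 and Birc3 are named after their values were seen. Map3k14, which encodes the kinase NIK at the head of the route, was at 1.1 ± 0.181 and 0.836 ± 0.307 FPKM, with overlap. The list mixes genes that drive the route with genes that restrain it. Traf2, Traf3, Birc2 and Birc3, whose products together limit NIK, were among the 7 genes higher without overlap. The counts of this list therefore give no direction for the route. Among 14 nuclear regulators the median was -0.02, and Rps3, a ribosomal protein also found with RelA, was at 93.8 ± 9.07 and 116 ± 5.08 FPKM.

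With the library set as a term 5 pathway genes were called higher and none lower, against 0.674% and 0.135% of all genes tested. Their names were taken after the values were seen. Besides Tnip1 they were Irak3, which encodes a brake on IL-1 receptor kinases, Ikbke, an IKK relative, Zc3h12a, which encodes a ribonuclease that destroys inflammatory mRNA, and the receptor gene Cd40. Irak3 was at 7.52, 8.27 and 7.15 FPKM without and at 19.2, 15.3 and 13.3 FPKM with IL-36β. Its groups were far apart, with folds of 2.35 within set A/B and 1.93 within D/E (limma with the set term, adjusted p = 0.0147). Zc3h12a was at 2.54, 1.68 and 0.925 FPKM in untreated libraries and 8.54, 5.76 and 5.32 FPKM with IL-36β, again with no overlap (adjusted p = 0.00593 in the same limma model). Cd40 overlapped between the groups when pooled.

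The genes whose pattern over the 6 libraries was most like that of Nfkbia on the log2(FPKM + 0.5) scale were Neurl3 (Pearson r = 0.9969), Rnd1 (r = 0.9961) and Arhgef2 (r = 0.9943). Those most like Nfkbiz were the antimicrobial lipocalin gene Lcn2 (r = 0.9988) and the chemokine genes Ccl7 (r = 0.9983) and Cxcl1 (r = 0.9964). These are the closest of 12618 genes, members and predicted genes aside, over 6 libraries that share the treatment contrast, and they are given as a description only. Like Nfkbiz, none of its 3 neighbours passed the limma threshold, in spite of mean levels of 24.8 and 410 FPKM for Lcn2 and 21.7 and 296 FPKM for Cxcl1. Of the neighbours of Nfkbia, Neurl3 and Rnd1 passed (limma adjusted p = 0.0179 and 0.0322) and Arhgef2 did not.

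The authors' deposited table holds 660 of the 54532 genes of the expression table, and 6 of the 10 members. In the authors' deposited table the log2 fold changes are 1.61 for Nfkbiz, 1.52 for Bcl3, 0.69 for Nfkb2, 0.58 for Nfkbia, 0.54 for Nfkbie and 0.49 for Nfkbib, all higher with IL-36β. In that same authors' deposited table every listed gene has a p up to 0.05 and an adjusted p of at least 0.999. The value for Nfkbia departs from the limma value of 0.92 for the 6 labelled libraries. Which libraries entered the authors' comparison is stated in no source used here, and their tables also hold the 4 libraries without a sample label. In the authors' deposited table of gene ontology terms for genes higher with IL-36β, NIK/NF-kappaB signaling holds 9 of 365 genes against 92 of 15819 (adjusted p = 0.00602), Bcl3 and Nfkb2 among them. I-kappaB kinase/NF-kappaB signaling holds 13 of 365 in the authors' deposited table (adjusted p = 0.00728), with Bcl3 and Nfkbia. Of 11 terms there that name NF-kappaB, 4 have an adjusted p under 0.05 and the others 0.0574 to 0.566 in the authors' deposited table. Among all 4931 terms in the authors' deposited table, 407 have an adjusted p under 0.05. The members named are themselves in the gene list behind these terms, so the terms are no separate support for them.

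**Figure D5:**
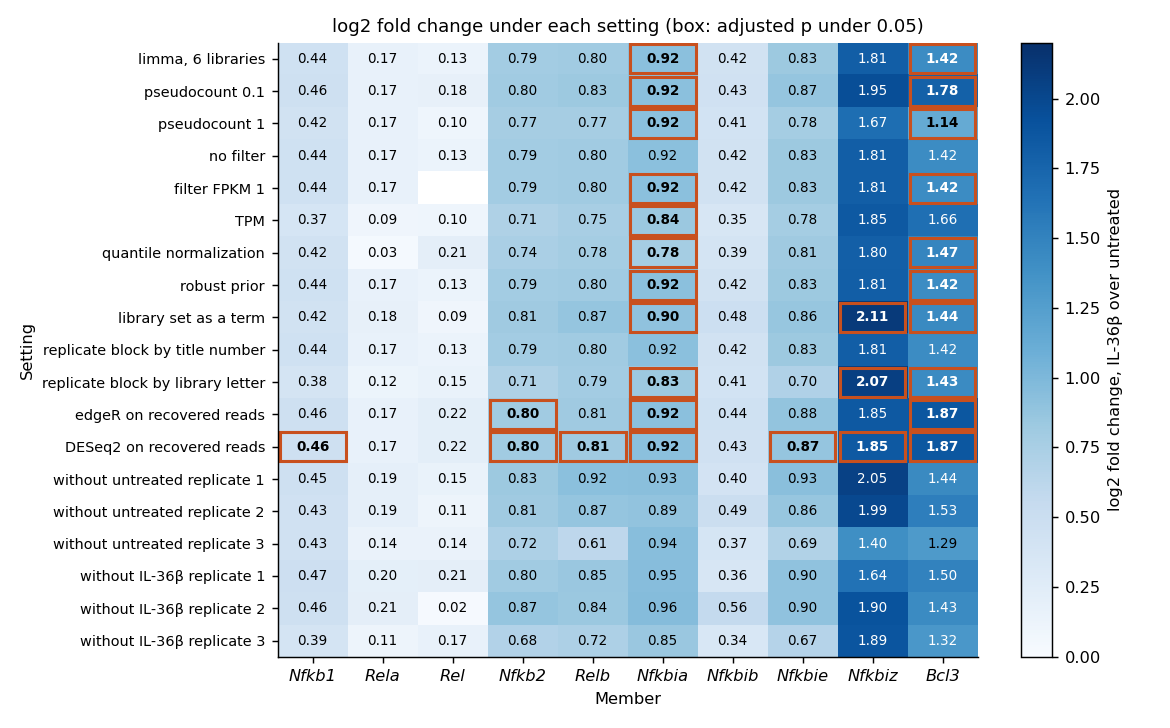
Log2 fold change of each member (columns) with all 6 libraries and under each other setting (rows), where darker blue is larger and an orange box marks an adjusted p under 0.05. Every value is above 0, the boxes lie mostly on Nfkbia and Bcl3, the DESeq2 row has the most boxes, and the rows with a library left out have none.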

How the data were processed

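The labels' protocols describe a stranded mRNA kit and Illumina NextSeq sequencing. Tools listed, with no settings, in the submitters' processing notes are HISAT2 2.05 and fastp, featureCounts 1.50-p3, StringTie and DESeq2 1.38.3, on the build GRCm38. The authors deposited FPKM for 54532 genes, a table of 660 genes with raw counts, log2 fold changes, p-values and normalized counts (signal), and gene ontology terms. Columns of 4 libraries without a sample label, 8 in all, were not used. FPKM times length, with 1 divisor per library, gave whole reads in 100% of values above 0 (within 0.01 of a read), equal to the deposited counts in all 660 genes. That divisor was proportional to the authors' size factor, so these FPKM are scaled by size factors and not by library totals. Replicates differed by more than counting error (10.96 to 40.52 chi-square units per degree of freedom).

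The 12618 genes that reached 0.5 FPKM in 3 or more of the 6 libraries were tested with limma 3.58.1 (R 4.3.3), trended prior, on log2(FPKM + 0.5), two-sided, with Benjamini-Hochberg adjusted p under 0.05. Folds and 95% confidence intervals are on that scale. The script was tested on simulated data. The family members, gene lists and tests were chosen with earlier results of these data known. The text names all members, each pathway gene past the threshold or else the most abundant gene of its list, and the 3 genes most like Nfkbia and Nfkbiz; other names are said to be chosen after their values were seen. Alternatives were other pseudocounts (0.1, 1), filters, TPM and quantile scaling, a robust prior, the library set as a term, replicate blocks, edgeR 4.0.16 and DESeq2 1.42.0 on recovered reads, and leaving out each library. Promoters are from RefSeq, GRCm38.p6; gene overlaps and transcripts are from GENCODE M21.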

Additional observations from a re-analysis of the deposited data

How the results depend on the processing

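No member, pathway gene count or ratio changed direction under any setting run. The count of all genes called, 23 in the reported model, was 0 with no filter (1751 at an unadjusted limma p under 0.05), 15 with TPM, 102 with the library set as a term (85 higher, 17 lower), 37 in edgeR and 260 in DESeq2 (160 higher, 100 lower), and 2 to 8 with 1 library left out. Members called, 2 in the reported model, were 0 in limma with no filter (8 at an unadjusted p under 0.05), 1 with TPM (Nfkbia), 7 in DESeq2 and 0 with any 1 library left out. Pathway genes called, 1 in the reported model, were 0 with a pseudocount of 0.1, no filter, TPM or quantile scaling, 5 with the set term, 2 in edgeR, 6 in DESeq2 and 0 with any 1 library left out. TPM moved the median log2 fold change of all genes to -0.08.

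Title numbers did not set pairs apart: deviations of same-numbered libraries correlated at 0.21, -0.14 and 0.21, those of other pairs at -0.46 to 0.39. Pairs within a library set were all positive (0.21 to 0.39) and pairs across the sets all negative (-0.46 to -0.01). Deviations of the 3 libraries of a group are tied to each other, so these signs are not separate results. They are no test of the grouping into sets. With a replicate block by title number 13 genes and 0 members were called; Nfkbia then had a limma adjusted p of 0.069 and Bcl3 of 0.0965. With a replicate block by library letter, which pairs 2 libraries a group, 78 genes, 3 members (with Nfkbiz) and 4 pathway genes were called.

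Over 18 alternatives the log2 fold change was 0.78 to 0.96 for Nfkbia, 1.14 to 1.87 for Bcl3, 1.40 to 2.11 for Nfkbiz and 0.68 to 0.87 for Nfkb2. At the levels of Rel and Bcl3 the read number limits precision.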
